A study of Mus musculus with 16 samples.

Results

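Lin28, Igf2bp and Hmga proteins are RNA-binding and chromatin proteins that are abundant in embryonic tissue, fall as tissues mature and return in many tumors. The 7 mouse genes Lin28a, Lin28b, Igf2bp1, Igf2bp2, Igf2bp3, Hmga1 and Hmga2 were taken by symbol from tables of 24411 genes, and each of them had a row. Lin28 proteins bind precursors of the let-7 microRNAs and block their maturation. Igf2bp proteins, the insulin-like growth factor 2 mRNA-binding proteins, coat target mRNAs in the cytoplasm and alter their stability, translation and location, and they also read the m6A mark on RNA. Hmga proteins bind the minor groove of AT-rich DNA and bend chromatin. The families are tied together by let-7, which rises during differentiation and silences mRNAs of all of them through sites in their 3′ UTRs, so that Lin28 and let-7 hold each other down. In neuroblastoma, a childhood tumor of the sympathetic nervous system, LIN28B is a known oncogene that acts upstream of let-7 and MYCN.

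The libraries came from Th-MYCN mice, in which the tyrosine hydroxylase promoter drives human MYCN in cells of the sympathetic lineage and homozygous animals develop neuroblastoma. The study asked what loss of an allele of Runx1t1, a transcriptional co-repressor, does to this process. There were 16 libraries in 5 groups. Of these, 12 were celiac ganglia dissected at 2 weeks of age: 4 from mice without the transgene and with wild-type Runx1t1, 3 without the transgene and heterozygous for a Runx1t1 loss-of-function allele, 3 from Th-MYCN homozygotes with wild-type Runx1t1, and 2 from Th-MYCN homozygotes heterozygous for Runx1t1. The remaining 4 were tumors of Th-MYCN homozygotes with wild-type Runx1t1, whose age the labels do not give. They are called here transgene-free wild-type, transgene-free het, MYCN wild-type and MYCN het ganglia, and tumors, where wild-type and het always mean Runx1t1. Human MYCN itself has no row in the mouse tables, and the cell type label reads neuroblastoma for the ganglia too. Nothing in the labels says whether replicates came from separate animals, so the p-values measure the spread between these samples only.

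Some features of the libraries bear on the members. Total counts ran from 10692299 to 38618757, and 6 ganglia, among them both MYCN het ganglia and no tumor, held fewer than 20000000. MYCN wild-type ganglion replicate 3 stood apart from its group: its Runx1t1 level was 7.90 TPM against 70.3 and 37.4 TPM in replicates 1 and 4 and at most 6.28 TPM in transgene-free ganglia, and its summed level of 10 proliferation genes was 142.8 TPM against 1447 and 746 TPM. Transgene-free wild-type ganglion replicate 2 held 740 TPM of 7 lymphocyte markers against 3.61 to 11.3 TPM in the other transgene-free ganglia, and 441 TPM of 6 myeloid markers. Tumor replicate 3 held 5835 TPM of 4 hepatocyte markers, and the other tumors 1.41 to 65.1 TPM. Ganglia carried the markers of sympathetic neurons, with a sum over 12 genes of 7075 to 23708 TPM, and tumors held 1570 to 2645 TPM. Runx1t1 was 3.67 ± 0.763 TPM (SD, n = 4) in transgene-free wild-type and 5.01 ± 1.10 TPM (SD, n = 3) in transgene-free het ganglia, and the ranges overlapped, so that its RNA did not separate the het label.

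The sequences that join the families are the let-7 seed and its complement in the members' 3′ UTRs. RefSeq (GRCm38.p6) lists 9 mature let-7 and miR-98 sequences from 11 loci, and all carry the same seed at bases 2 to 8. Representative sequences are printed 5′ to 3′ with the seed in capitals.
mmu-let-7a-5p: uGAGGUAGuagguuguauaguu
mmu-let-7e-5p: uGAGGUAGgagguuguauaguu
mmu-let-7g-5p: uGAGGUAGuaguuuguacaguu
mmu-miR-98-5p: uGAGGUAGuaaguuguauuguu

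The matching site is CTACCTC on the sense strand, and CTACCTCA where an A follows, which strengthens pairing sites of this kind. The longest annotated 3′ UTR of each gene (GENCODE M21, GRCm38) was searched on the transcript strand. All 7 members held the site: 4 each in Lin28b, Igf2bp1 and Hmga2, 2 in Lin28a and 1 each in Igf2bp2, Igf2bp3 and Hmga1. Among 21007 genes with a 3′ UTR, 9.021% held at least 1 site and 0.057% held 4 or more. Length matters for such counts, since among 3′ UTRs from 0.8 to 1.25 times as long, 0.295% held as many sites as Lin28b, 0.331% as many as Igf2bp1 and 0.123% as many as Hmga2, but 12.087% held a site as Igf2bp2 did, 13.331% as Igf2bp3 did and 8.238% as Hmga1 did. The sites shown are the ones nearest the stop codon in each gene, and all 3 of the longer kind in Igf2bp1, with the matched letters in capitals.
Lin28a, chr4:134005188-134005211, minus strand: gcacagcctgttgaaCTACCTCAt
Lin28b, chr10:45381021-45381044, minus strand: acccgggcgggaagtCTACCTCAt
Igf2bp1, chr11:95961777-95961800, minus strand: gctgtgcgaagtaaaCTACCTCAa
Igf2bp1, chr11:95959356-95959379, minus strand: cagcagtgctattaaCTACCTCAg
Igf2bp1, chr11:95958762-95958785, minus strand: gtataaatggatgaaCTACCTCAg
Igf2bp2, chr16:22059472-22059495, minus strand: acacacaaataaaagCTACCTCAg
Igf2bp3, chr6:49086786-49086809, minus strand: tgcatttttactcaaCTACCTCAg
Hmga1, chr17:27563277-27563300, plus strand: tcctctgttcacaaaCTACCTCtg
Hmga2, chr10:120364223-120364246, minus strand: gccgacattcaatttCTACCTCAg

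The site in Lin28b began at base 36 of its 3′ UTR and the first in Hmga2 at base 58, whereas the first in Igf2bp1 lay 1715 bases in, within the longest 3′ UTR of the set (6337 bases). Hmga1 had the shorter form only, at base 801 of 1183. A match of letters is not a measured site. The small RNAs were not measured either: the 11 let-7 loci had rows, and each was at 0 in every library.

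**Figure D1:**
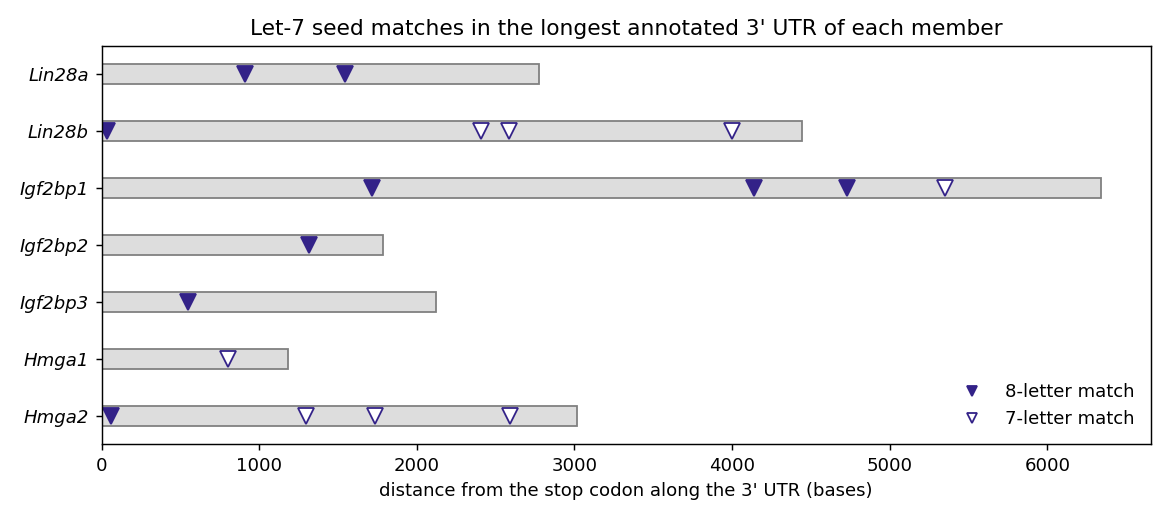
Positions of let-7 seed matches along the longest annotated 3′ UTR of each member (x axis, bases from the stop codon). Grey bars are the 3′ UTRs, filled triangles 8-letter and open triangles 7-letter matches, and Lin28b, Igf2bp1 and Hmga2 each carry 4.

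The genes lie apart in the genome. Lin28b spans chr10:45376620-45486395, Hmga2 chr10:120361275-120476469, Lin28a chr4:134003330-134018841, Igf2bp1 chr11:95957163-96005940, Igf2bp2 chr16:22059009-22163299 and Igf2bp3 chr6:49085223-49214957, all on the minus strand, and Hmga1 chr17:27556497-27563674 on the plus strand (GRCm38). Genes on the opposite strand overlap Lin28a, Igf2bp1, Igf2bp3, Hmga1 and Hmga2, including the 3′ end of Hmga1, and whether the counting used strand is not given in the sources used here. Lin28a and Lin28b shared no 31-base stretch in their transcripts, nor did any pair of Igf2bp genes.

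Of the promoters, windows of 300 bases around the start site in RefSeq (GRCm38.p6), 6 members had an entry, and those of Lin28b and Igf2bp3 held the E-box CACGTG, the palindromic motif bound by MYC family proteins. It stood once in Lin28b and 2 times in Igf2bp3, and 7.15% of 32851 promoters of the same length hold it. The table held no match for Igf2bp1. Both promoters are shown because MYCN is a protein of this family. The Lin28b window lies inside the gene span given above, at an internal start. The motif is in capitals and the strand is minus.
Lin28b, chr10:45470152-45470451: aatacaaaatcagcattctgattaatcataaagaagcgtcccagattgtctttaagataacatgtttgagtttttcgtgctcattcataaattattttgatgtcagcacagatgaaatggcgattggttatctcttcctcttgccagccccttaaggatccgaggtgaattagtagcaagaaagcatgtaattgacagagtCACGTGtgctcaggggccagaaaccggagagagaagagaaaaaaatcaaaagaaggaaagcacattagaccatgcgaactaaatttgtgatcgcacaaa
Igf2bp3, chr6:49214905-49215204: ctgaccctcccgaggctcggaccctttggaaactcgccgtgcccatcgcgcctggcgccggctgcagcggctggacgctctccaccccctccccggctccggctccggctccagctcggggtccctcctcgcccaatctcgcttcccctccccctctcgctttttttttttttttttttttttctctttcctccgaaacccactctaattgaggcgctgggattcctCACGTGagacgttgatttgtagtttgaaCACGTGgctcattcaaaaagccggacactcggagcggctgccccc

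The members differed widely in level, compared here in TPM, which corrects for transcript length. Over the 12 ganglia, Hmga1 was far above the rest with a mean of 78.3 TPM (SD 16.9). Igf2bp3 (7.12, SD 9.15), Igf2bp2 (5.63, SD 1.76) and Lin28b (2.77, SD 1.68) followed with ranges that overlapped one another, and their order depends on the ganglia pooled: the medians over the 12 were 5.86 TPM for Igf2bp2, 2.56 for Igf2bp3 and 2.35 for Lin28b, and in the 7 transgene-free ganglia Igf2bp2 (mean 5.60 TPM) was above Igf2bp3 (3.39 TPM). Igf2bp1 averaged 0.823 TPM (SD 1.90), and Hmga2 (0.0942) and Lin28a (0.0883) lay near the detection floor. In the 4 tumors the order was Hmga1 (177 TPM), Lin28b (13.6), Igf2bp3 (3.43), Igf2bp2 (0.268), Lin28a (0.198), Hmga2 (0.065) and Igf2bp1 (0.0025). Lin28b and Igf2bp3 overlapped in tumors. The ranges of Igf2bp2, Lin28a and Hmga2 overlapped one another, and those of Lin28a and Hmga2 included that of Igf2bp1, so the order of these 4 is not settled.

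**Figure D2:**
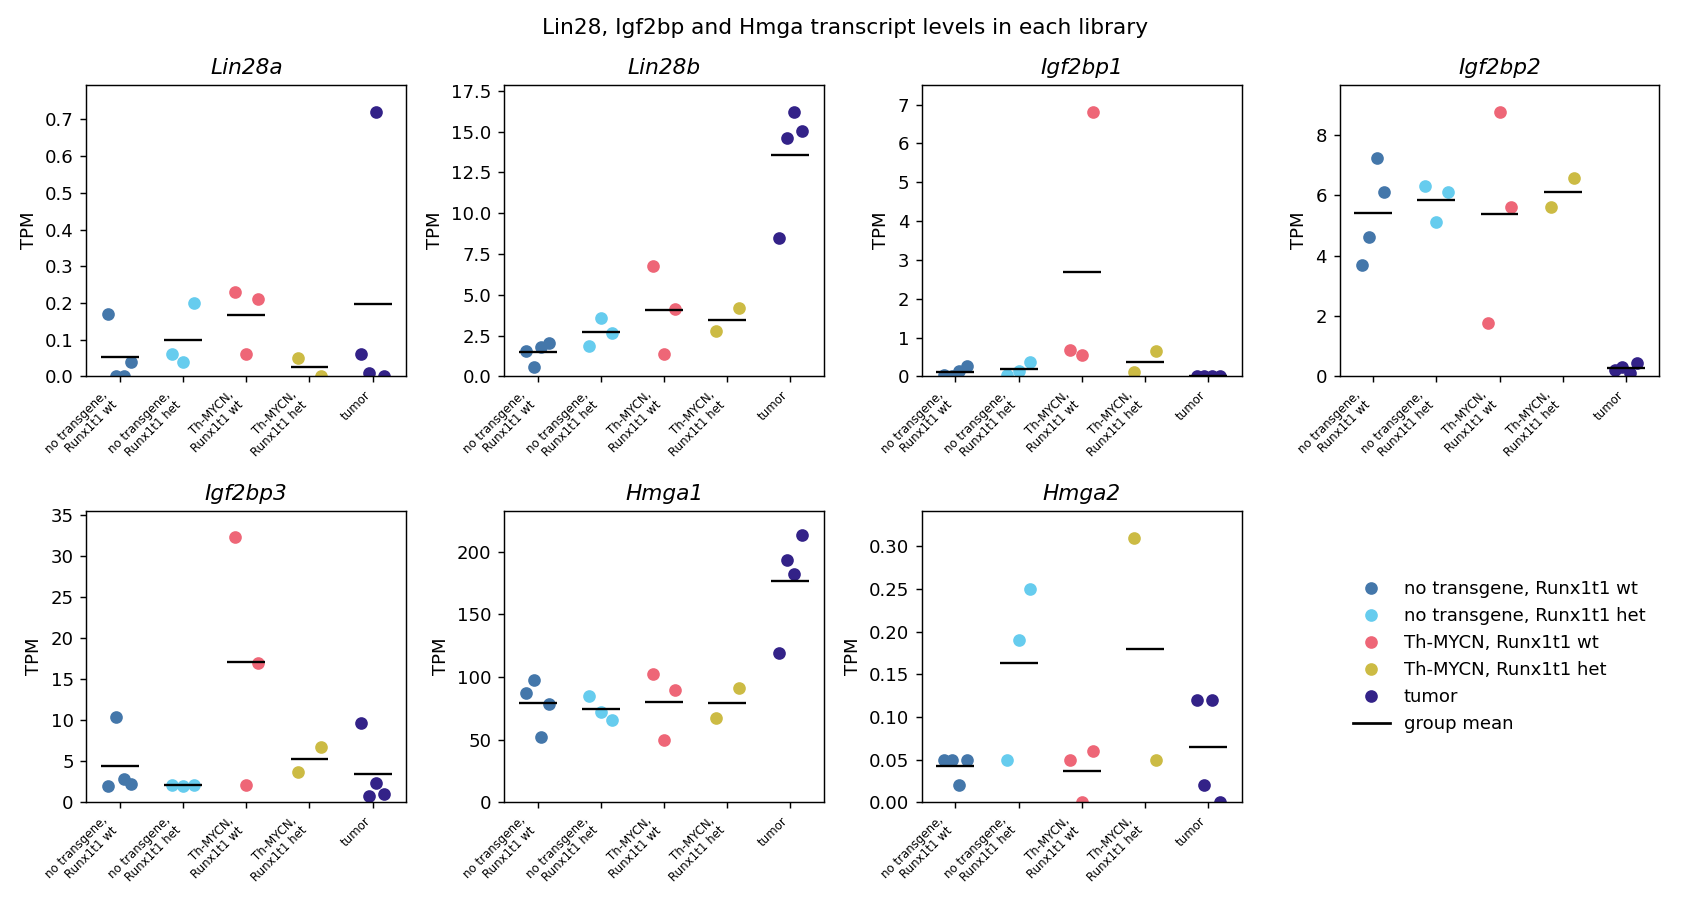
TPM of the 7 members in every library, by group (points, 1 per library, and black lines at the group mean, with a linear axis of its own for each gene). Lin28b and Hmga1 are highest in all 4 tumors, Igf2bp2 is lowest there, and Igf2bp1 and Igf2bp3 reach their highest levels in MYCN wild-type ganglia.

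Tumors were set against the 7 transgene-free ganglia to ask which of these genes differ between neuroblastoma and normal sympathetic ganglia. Lin28b and Hmga1 rose and Igf2bp1 and Igf2bp2 fell, while Igf2bp3 and Hmga2 did not pass the test. This made 4 of 6 tested members, 2 higher and 2 lower, where 61.4% of all 16665 tested genes passed, 30.6% higher and 30.9% lower. The share is near the background, and the results below are about single genes. Lin28a was not tested because its counts were too low for the filter.

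Lin28b, the let-7 blocking protein, was at 8.50, 14.6, 16.2 and 15.1 TPM in the tumors. In transgene-free wild-type ganglia it was at 1.57, 0.58, 1.82 and 2.03 TPM and in transgene-free het ganglia at 1.86, 3.57 and 2.66 TPM. All tumors were above all ganglia, and tumor replicate 1 was the lowest of them. The difference was 3.18 on the log2 scale (SE 0.40, 9.09-fold, edgeR adjusted p = 1.4e-05), and it was 2.93 among the libraries over 20000000 counts (adjusted p = 0.00019).

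Hmga1, a chromatin protein, was at 119, 193, 182 and 213 TPM in tumors. Its levels were 87.4, 97.8, 52.3 and 78.7 TPM in transgene-free wild-type and 85.0, 72.3 and 65.8 TPM in transgene-free het ganglia. The groups did not overlap, and tumor replicate 1 was again the lowest tumor. Hmga1 was higher by 1.60 on the log2 scale (SE 0.24, 3.04-fold, edgeR adjusted p = 6.6e-05), with 1.84 among the deeper libraries (adjusted p = 0.000295).

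Beside both genes, the summed level of the 10 proliferation genes was 1719 to 2119 TPM in tumors and 71.8 to 394 TPM in transgene-free ganglia. Its part in the rise of Lin28b and Hmga1 was not tested. In whole tissue, a change in the share of cells that express a gene and a change in RNA per cell cannot be told apart.

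Igf2bp2, the member of its family that persists into adult tissue, moved the other way. It was at 0.20, 0.32, 0.11 and 0.44 TPM in tumors. It was at 3.70, 4.63, 7.22 and 6.12 TPM in transgene-free wild-type and at 6.32, 5.10 and 6.10 TPM in transgene-free het ganglia. Even the lowest ganglion stood far above the highest tumor. The log2 difference was -3.94 (SE 0.48, a ratio of 0.0654, edgeR adjusted p = 1.1e-05) and -4.04 among the deeper libraries (adjusted p = 8.7e-05).

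Several marker lists of ganglion cells were lower in tumors as well. Tumors held 12.17 to 19.97 TPM of 6 glial markers against 511 to 1839 TPM in transgene-free ganglia. The sum over 5 fibroblast markers was 99.5 to 299 TPM against 907 to 4369 TPM, with no marker of either list at 0 in all libraries of a group. Beside 30.9% lower and 30.6% higher over all tested genes, 10 of the 12 sympathetic neuron markers fell and 1 rose, with a median log2 difference of -3.59. Of 6 myeloid markers, in contrast, 3 rose and none fell, with a median of 1.29. The part of these cells in the fall of Igf2bp2 was not tested.

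Igf2bp1, the most strictly fetal member, was nearly absent from tumors, with 0, 1, 0 and 0 expected counts, or at most 0.01 TPM. It was low in transgene-free ganglia as well, with 2, 1, 15 and 29 counts in wild-type and 2, 17 and 38 in het ganglia, or 0.02 to 0.38 TPM. No tumor exceeded any ganglion in TPM. Against a floor of 3 counts in each tumor library, Igf2bp1 was at least 5.18-fold lower in tumors than in transgene-free ganglia. The fitted log2 difference was -5.38 (edgeR adjusted p = 0.0023), a value that depends on the prior count. It was -6.68 without tumor replicate 2 and -4.91 without transgene-free het replicate 4. Without the latter library the bound was 3.88-fold. With limma on log2(TPM + 1) or log2(TPM + 0.1) the adjusted p was 0.634 and 0.135.

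Igf2bp3, the third protein of the family and a marker of several carcinomas, varied within groups more than between them. Tumors were at 9.62, 0.74, 2.33 and 1.03 TPM, with replicate 1 high. Transgene-free wild-type ganglia were at 2.02, 10.4, 2.85 and 2.26 TPM and het ganglia at 2.15, 2.03 and 2.06 TPM. The high ganglion was replicate 2, the library with lymphocyte and myeloid markers, and the share of those cells in its value was not tested. The log2 difference was 0.59 (SE 0.77, edgeR adjusted p = 0.523), and it turned to -0.75 without tumor replicate 1 and rose to 1.06 without the high ganglion.

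Lin28a and Hmga2 were close to undetected. Lin28a, the Lin28 protein of pluripotent cells, had 0 to 11 counts in the 12 ganglia and 3, 1, 36 and 0 in tumors, where the 36 counts of replicate 3 made 0.72 TPM. Hmga2 had 0 to 12 counts in ganglia and 7, 2, 7 and 0 in tumors, 0.31 TPM at most. At these counts no difference was detectable. The tables also list Hmga2-ps1, annotated by RefSeq as a transcribed pseudogene at chr1:176834624-176836133 (GRCm38.p6), with far more reads than Hmga2 itself. It was at 1.00 to 2.08 TPM in tumors and 10.6 to 34.97 TPM in transgene-free ganglia, lower by -3.68 on the log2 scale (SE 0.38, edgeR adjusted p = 3.5e-06). Its sequence was not compared with Hmga2 here, so how reads were shared between them is uncertain.

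Tumors were then compared with MYCN ganglia, which carry the same transgene, to ask which differences lie between the early and the tumor stage. The comparisons share the same 4 tumors with the one above. Lin28b and Hmga1 were again higher and Igf2bp1 and Igf2bp2 lower. Against MYCN wild-type ganglia 4 of 6 tested members passed, beside 34.5% of all genes, and against MYCN het ganglia 4 of 6 passed, beside 45.5%.

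Lin28b was at 6.75, 1.36 and 4.12 TPM in MYCN wild-type ganglia (replicates 1, 3 and 4, in the order used throughout) and at 2.76 and 4.20 TPM in MYCN het ganglia. Every tumor was higher, although the lowest tumor, at 8.50 TPM, was near the highest ganglion. Tumors exceeded MYCN wild-type ganglia by 2.08 on the log2 scale (SE 0.52, 4.23-fold, edgeR adjusted p = 0.0072). The difference was 2.76 without MYCN wild-type replicate 1 and 1.65 without replicate 3 (adjusted p = 0.0221). They exceeded MYCN het ganglia by 2.44 (SE 0.62, 5.44-fold, edgeR adjusted p = 0.0056).

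Hmga1 was at 102, 49.8 and 89.3 TPM in MYCN wild-type and at 67.6 and 91.2 TPM in MYCN het ganglia, all below the tumors. The log2 differences of tumors were 1.47 (SE 0.32, edgeR adjusted p = 0.0031) and 1.56 (SE 0.37, adjusted p = 0.0037). Leaving out MYCN het replicate 1 leaves a single library in that group. The log2 differences from MYCN het ganglia were then 1.37 for Hmga1 and 2.16 for Lin28b, and neither gene passed the threshold. Both MYCN het ganglia held under 20000000 counts and all tumors more, so no comparison within a depth class was possible. A term for depth could be fitted because other groups hold libraries on both sides of 20000000 counts. With it the log2 differences from MYCN het ganglia were 2.44 for Lin28b (edgeR adjusted p = 0.0196) and 2.19 for Hmga1 (adjusted p = 0.00046). The fitted values for Igf2bp1 and Igf2bp2 were -8.99 (adjusted p = 0.00039) and -4.63 (adjusted p = 0.00019).

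Igf2bp2 was at 1.76, 8.76 and 5.60 TPM in MYCN wild-type and at 5.61 and 6.58 TPM in MYCN het ganglia, above every tumor. Replicate 1 of the MYCN wild-type ganglia, the ganglion with the most proliferation RNA, was the lowest ganglion of all 12. The same library had the lowest glial and fibroblast marker sums of the 12, 457 and 537 TPM. The part of those cells in its Igf2bp2 level was not tested. Tumors differed by -3.88 on the log2 scale from MYCN wild-type (SE 0.51, edgeR adjusted p = 0.0001) and by -4.00 from MYCN het ganglia (SE 0.54, adjusted p = 6.9e-05). Glial markers were at 457 to 1729 TPM in MYCN wild-type ganglia, again above the tumors.

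Igf2bp1 was at 0.68, 0.56 and 6.81 TPM in MYCN wild-type ganglia, from 29, 50 and 889 counts. MYCN het ganglia had 5 and 29 counts, or 0.11 and 0.66 TPM. Tumors were at least 93.5-fold below MYCN wild-type ganglia (edgeR adjusted p = 0.00031) and at least 13.2-fold below MYCN het ganglia (adjusted p = 0.0019). The second call was lost with limma on log2(TPM + 1) and log2(TPM + 0.1), at adjusted p of 0.476 and 0.0834, and Igf2bp1 was not tested when only the groups compared were fitted. The first bound rests largely on MYCN wild-type replicate 4, without which it was 23.3-fold and the fitted log2 difference moved from -9.47 to -7.45. The second rests largely on MYCN het replicate 2. Without that library, which leaves a single one in its group, the bound was 3.59-fold and the fitted difference moved from -6.64 to -4.80. Without tumor replicate 2, the only tumor with a count, the fitted differences were -10.77 and -7.94.

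Igf2bp3 was at 32.2, 2.05 and 17.0 TPM in MYCN wild-type ganglia, so that its highest levels were in ganglia and not in tumors. Tumors differed by -2.00 on the log2 scale (SE 0.94, edgeR adjusted p = 0.114). Without tumor replicate 1, the high tumor, the difference was -3.34 and the adjusted p 0.0131. It was -1.02 without MYCN wild-type replicate 1 (adjusted p = 0.441), -1.07 among the deeper libraries (adjusted p = 0.432) and -1.30 with a term for depth (adjusted p = 0.293). In MYCN het ganglia Igf2bp3 was at 3.68 and 6.73 TPM, inside the range of the tumors.

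**Figure D3:**
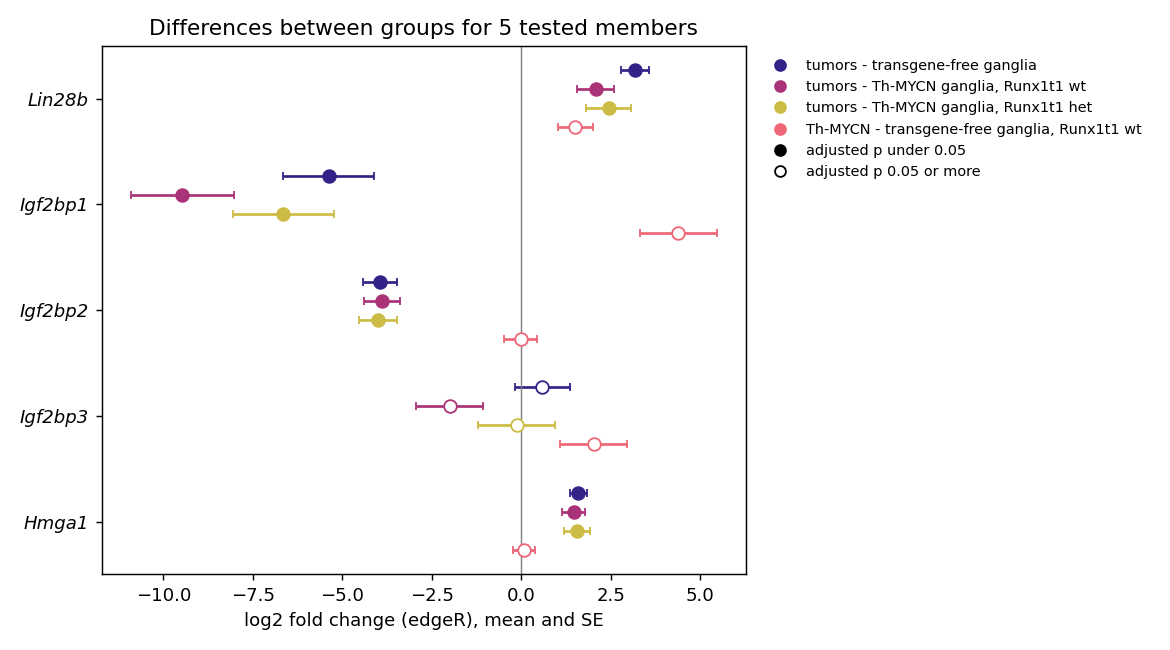
Log2 fold changes of 5 members in 4 comparisons, with SE (edgeR). Filled points passed an adjusted p of 0.05, which Lin28b, Igf2bp1, Igf2bp2 and Hmga1 did in each comparison with tumors and no member did between MYCN and transgene-free ganglia.

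The transgene was the subject of the comparisons among ganglia. No member passed the test in any of them. All 5 MYCN ganglia against all 7 without the transgene gave 0 of 6 members, where 0.042% of genes passed (7 genes, 1574 at an unadjusted p under 0.05, and 356 by DESeq2). MYCN wild-type against transgene-free wild-type ganglia also gave 0 of 6, beside 0.936% of genes (156 genes, 3302 unadjusted, and 1285 by DESeq2), and DESeq2 called 2 members there, Lin28b and Igf2bp1. MYCN het against transgene-free het ganglia gave 0, beside 0% of genes (242 unadjusted, and 14 by DESeq2).

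Lin28b, Igf2bp1 and Igf2bp3 are given here in more detail, although none passed the test. For Lin28b, replicates 1 and 4, at 6.75 and 4.12 TPM, were above every ganglion without the transgene, whereas replicate 3, at 1.36 TPM, was among them. The log2 difference from transgene-free wild-type ganglia was 1.52 (SE 0.49, unadjusted p = 0.0078, edgeR adjusted p = 0.124). Without replicate 3 it was 1.95 with an adjusted p of 0.0107, and without replicate 1 it was 0.84 with an adjusted p of 0.659. Within depth it was 0.58 in libraries over 20000000 counts (adjusted p = 0.898). Under that depth it was 2.83 (adjusted p = 0.408), which rests on replicate 1 as the only MYCN wild-type library.

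Igf2bp1 was higher in all 3 MYCN wild-type ganglia than in any transgene-free ganglion, whose highest value was 0.38 TPM. The log2 difference from transgene-free wild-type ganglia was 4.39 (SE 1.08, edgeR adjusted p = 0.0644). It was 4.88 without replicate 3 (adjusted p = 0.0132), and 2.40 without replicate 4, which held 889 counts. DESeq2 gave 4.43 with an adjusted p of 0.0029. The edgeR value was 4.22 with a term for depth (adjusted p = 0.0420) and 3.24 with a term for sex (adjusted p = 0.130). Among the deeper libraries alone it was 4.22 (adjusted p = 0.422). In shallower libraries it was 4.34 (adjusted p = 0.409), but there it compares 1 MYCN library with transgene-free libraries of 2 and 1 counts.

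Igf2bp3 in the same comparison differed by 2.02 on the log2 scale (SE 0.94, edgeR adjusted p = 0.253). Replicates 1 and 4 were above all transgene-free ganglia, and replicate 3 was at their level. Leaving out transgene-free wild-type replicate 2 raised the difference to 2.97, and leaving out MYCN wild-type replicate 1 lowered it to 1.04. Over all MYCN against all transgene-free ganglia the log2 differences were 0.92 for Lin28b (edgeR adjusted p = 0.448), 2.68 for Igf2bp1 (adjusted p = 0.234) and 1.66 for Igf2bp3 (adjusted p = 0.495). That of Igf2bp1 was 1.69 without MYCN wild-type replicate 4 and 1.76 without MYCN het replicate 2.

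Proliferation RNA varied among the ganglia, and its part in these values was not tested. Among the 5 MYCN ganglia, the proliferation sum was 1447 TPM in wild-type replicate 1, 746 in replicate 4 and 142.8 in replicate 3, and 107 and 311 TPM in het replicates 1 and 2. Igf2bp3 followed this order in these 5 libraries except that het replicate 1 was above wild-type replicate 3, while Igf2bp1 was highest in wild-type replicate 4. Lin28b was highest in wild-type replicate 1 and lowest in wild-type replicate 3. Among the transgene-free ganglia, wild-type replicate 2 had the highest proliferation sum, 394 TPM, with the lowest Lin28b, 0.58 TPM. That library also held the lymphocyte and myeloid markers, and its sympathetic neuron sum, 8021 TPM, was the lowest of those ganglia. Het replicate 3 had the lowest proliferation sum, 71.8 TPM, with the highest Lin28b, 3.57 TPM. Tumors held the most proliferation RNA, and their Igf2bp3 was below every transgene-free ganglion in replicates 2 and 4 and within the range of those ganglia in replicates 1 and 3.

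**Figure D4:**
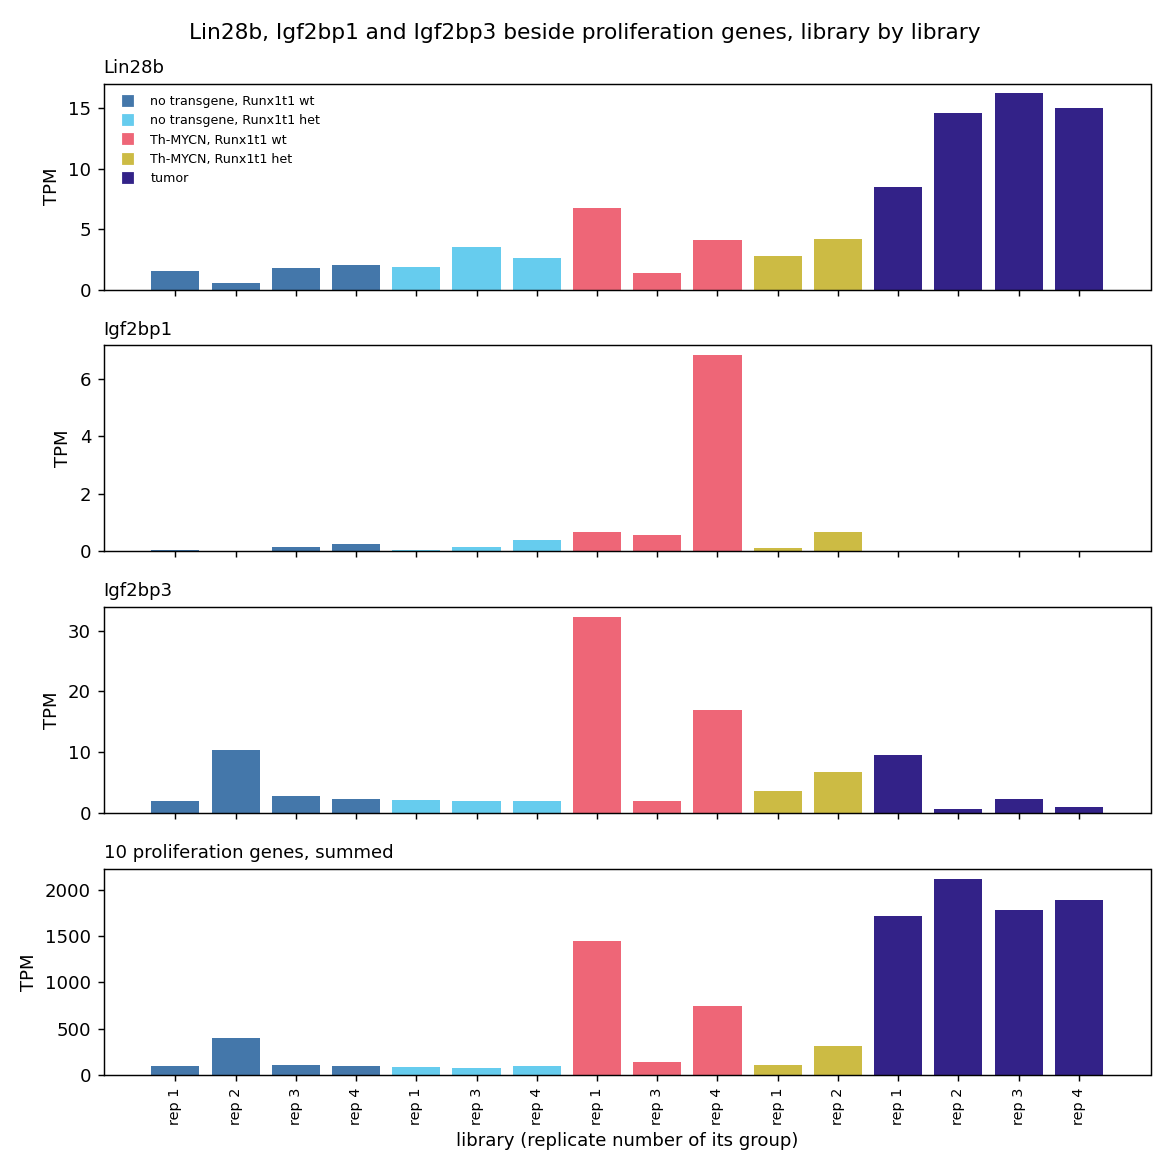
TPM of Lin28b, Igf2bp1 and Igf2bp3 and the summed TPM of 10 proliferation genes in each of the 16 libraries (bars, coloured by group). Igf2bp1 peaks at 6.81 TPM in MYCN wild-type replicate 4 and Igf2bp3 at 32.2 TPM in replicate 1, while tumors hold the most proliferation RNA.

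Hmga1 and Igf2bp2 had nearly equal means. Hmga1 was 77.0 ± 15.1 TPM (SD, n = 7) in transgene-free and 80.0 ± 21.0 TPM (SD, n = 5) in MYCN ganglia. Igf2bp2 was 5.60 ± 1.19 TPM (SD, n = 7) and 5.66 ± 2.53 TPM (SD, n = 5). The MYCN ganglia ran wider for both genes, from 49.8 to 102 TPM for Hmga1 against 52.3 to 97.8 TPM, and from 1.76 to 8.76 TPM for Igf2bp2 against 3.70 to 7.22 TPM.

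The Runx1t1 genotype was compared within each MYCN background. Neither contrast called a member. In MYCN ganglia, het against wild-type gave 0 of 6, beside 0.012% of genes (2 genes, 2094 unadjusted, and 264 by DESeq2). In transgene-free ganglia it gave 0 of 6, beside 0% (687 unadjusted, and 5 by DESeq2), and the test of whether the MYCN difference depended on Runx1t1 gave 0 of 6, beside 0% (937 unadjusted, and 31 by DESeq2). DESeq2 called no member in these 3 tests or in the MYCN comparison among het ganglia.

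Igf2bp1 had the largest difference between MYCN het and MYCN wild-type ganglia among the tested members, from 5 and 29 counts in the het libraries, -2.83 on the log2 scale (SE 1.33, edgeR adjusted p = 0.401). It shrank to -0.82 without wild-type replicate 4 and grew to -4.69 without het replicate 2. The interaction was -3.43 for Igf2bp1 and -1.19 for Lin28b (edgeR adjusted p = 0.845 for each). Leaving out single libraries moved it from -5.29 without MYCN het replicate 2 to -1.43 without MYCN wild-type replicate 4 for Igf2bp1, and from -1.62 without MYCN wild-type replicate 3 to -0.51 without replicate 1 for Lin28b. MYCN het replicate 2, at 0.66 TPM of Igf2bp1 and 4.20 TPM of Lin28b, lay within the range of the MYCN wild-type ganglia. Het replicate 1, at 2.76 TPM of Lin28b, did so too, but its 0.11 TPM of Igf2bp1 was below every MYCN wild-type ganglion.

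The surroundings of the families were described with lists chosen with earlier results known. Of the genes that process or turn over let-7, 15 of the 17 listed had a row, and in tumors against transgene-free ganglia 12 rose, 2 fell and 1 did not pass, where 30.6% of all tested genes were called higher and 30.9% lower, with a median log2 difference of 0.73 against -0.06 over all tested genes. Hnrnpa1 (2.56), an RNA-binding protein that hinders let-7 processing, and Khsrp (1.59), which favors it, rose most, and Ago3 (-1.18), an Argonaute protein, and Prkra (-0.57), a partner of Dicer, fell.

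Of 23 genes known as let-7 targets, 8 rose, 8 fell and 7 did not pass in tumors, with a median of -0.06. These shares are near the 30.6% higher and 30.9% lower over all genes. Of the 23 genes, 14 held the CTACCTC site. Dna2 (4.07), a replication nuclease, and Cdc25a (2.34), a cell cycle phosphatase, rose most. Cdk6 (-2.83), a kinase of the G1 phase, and Trim71 (-2.41, adjusted p = 0.0486), a stem cell protein of the let-7 circuit, fell most, and Trim71 lost its call in 13 of 16 fits that left out a library, with adjusted p up to 0.11 and differences from -4.54 without tumor replicate 3 to -1.99 without tumor replicate 2, and among the deeper libraries (-1.97, adjusted p = 0.196).

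Transcripts known to be bound by Igf2bp proteins were lower in tumors for 6 of 8, with 2 not past the test and a median of -1.86, beside 30.9% lower over all genes. All 5 fibroblast and all 6 glial markers were lower too, with medians of -3.40 and -5.42, and the part of those cells in this fall was not tested. Igf2 (-5.85), the growth factor mRNA that gave the family its name, was at 0.49 to 0.77 TPM in tumors and 18.1 to 101 TPM in transgene-free ganglia. Gli1 (-5.38), a transcription factor of hedgehog signaling, was the next. Of 13 measured writers, erasers and other readers of m6A, 10 rose in tumors and 3 did not pass (median 0.78), beside 30.6% higher over all genes, led by Rbm15 (1.78), a subunit of the writer complex, and Ythdf2 (1.21), a reader that promotes decay of its targets.

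The other high mobility group genes rose with Hmga1: all 7 tested passed, with a median log2 difference of 2.52, beside 30.6% higher over all genes. Hmgb2 (4.97, and 5.67 without transgene-free wild-type replicate 2), a DNA-bending protein of dividing cells, reached 655 to 913 TPM in tumors, and Hmgn2 (3.52), a nucleosome-binding protein, was second. Against MYCN wild-type ganglia 3 of the 7 passed, all higher. Of 9 other oncofetal genes, 3 were higher, 5 lower and 1 not past the test, beside 30.6% higher and 30.9% lower over all genes. Dlk1 (5.72), a Notch-like surface protein of fetal adrenal and sympathetic tissue, was at 414 to 699 TPM in tumors and 10.02 to 26.7 TPM in transgene-free ganglia. Epcam (5.12, and 6.94 without transgene-free wild-type replicate 2), an epithelial adhesion protein, rose too, while Igf2 and Trim71, already given, were the named genes that fell. All 10 proliferation genes rose, beside the same 30.6%, with Ccnb1 (6.26, and 6.87 without the same library), a mitotic cyclin, and Cdk1 (5.48), its kinase, first.

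Against MYCN wild-type ganglia, where 34.5% of all genes passed in place of 61.4%, 14% higher and 20.5% lower, each list held fewer calls too. Of the let-7 processing genes 6 rose and 1 fell, of the let-7 targets 1 rose and 4 fell, and of the transcripts bound by Igf2bp proteins 5 fell. Of the m6A genes 8 rose. Of the other oncofetal genes 1 rose and 3 fell, and 1 of the 10 proliferation genes rose past the threshold. Against MYCN het ganglia, where 22% of all genes were higher and 23.5% lower, all 10 proliferation genes (median 3.77) and 6 of 7 high mobility group genes (median 2.27) rose.

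**Figure D5:**
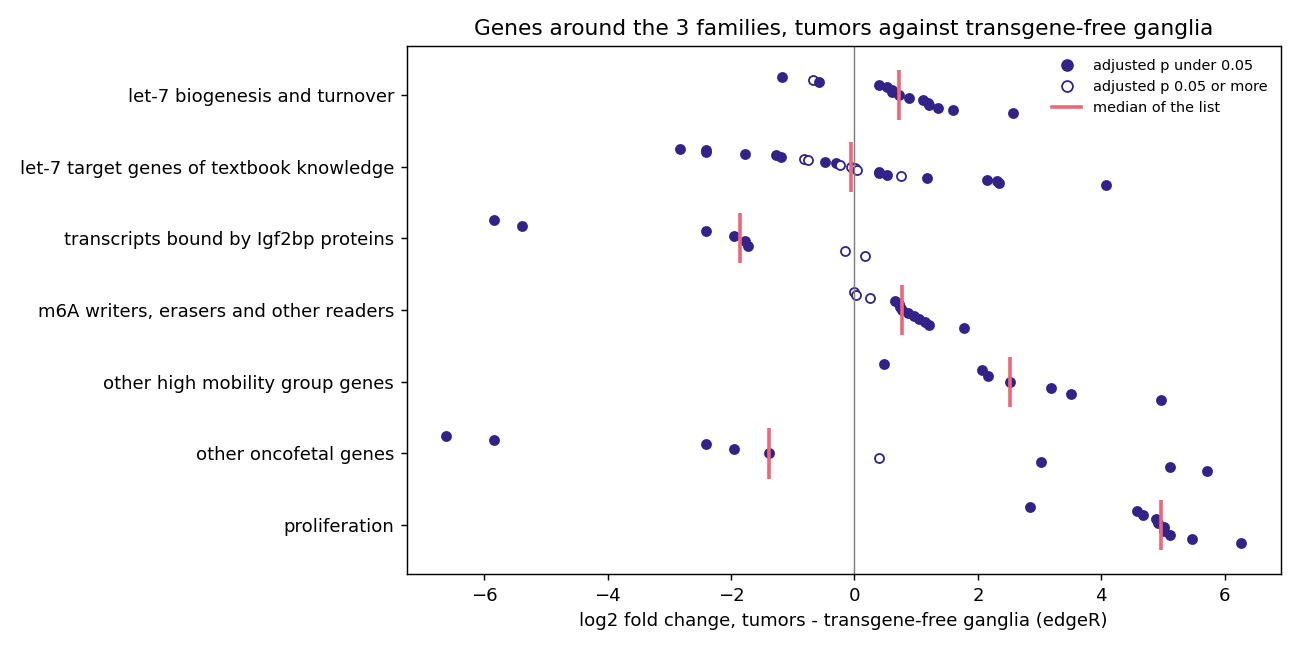
Log2 fold changes of tumors against transgene-free ganglia for the tested genes of 7 lists (x axis, edgeR). Each point is a gene, filled where it passed an adjusted p of 0.05, and vertical lines are list medians, which run from -1.86 for transcripts bound by Igf2bp proteins to 4.97 for proliferation genes.

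Some of the let-7 loci lie inside longer genes that were measured. Mir99ahg, the long noncoding host of let-7c-1, was at 0.05 to 0.60 TPM in tumors and 1.10 to 4.70 TPM in transgene-free ganglia. It stayed at 1.87 to 2.42 TPM in the MYCN ganglia. Huwe1, the host of let-7f-2 and miR-98, was at 117 to 173 TPM in every library, and Wdr82, the host of let-7g, at 50.6 to 89.2 TPM. Spaca6, the host of let-7e, was below 2 TPM everywhere. Host RNA does not give the level of the mature microRNA.

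For each tested member, the 3 genes whose pattern over the 16 libraries lay closest were found by the root mean square difference of log2(TPM + 1), each gene centred on its own mean. For Hmga1 they were Sdad1 (0.13), Dnajc2 (0.19) and Nap1l1 (0.20), close beside the gene's own spread of 0.60. For Lin28b they were Rps6ka6 (0.30), Ksr2 (0.31) and Wwc1 (0.35), with an own spread of 1.03. For Igf2bp2 they were Per3, Nuak1 and Sspn (0.22 each) with an own spread of 1.08. Igf2bp3 had no close neighbor, as Aff3 (0.55), Tcf7l2 (0.58) and Crim1 (0.68) came nearest beside an own spread of 1.15. Myh7 (0.30), Car10 (0.33) and Capn11 (0.38) were nearest to Igf2bp1 (own spread 0.71). Nemf, Abca12 and Slc39a7 came nearest to Hmga2, but its own spread of 0.11 left little pattern to match. With a pseudocount of 0.1, Sdad1, Aff3 and Myh7 stayed nearest to their members, whereas Rtl1 came first for Lin28b and Frem1, Lama4 and Nid1 came first for Igf2bp2.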

How the data were processed

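RNA-seq of 12 celiac ganglia and 4 tumors was analysed from the deposited tables, and no column was left unmapped. The submitters' processing notes name mm10, STAR, SAMtools and RSEM, and the reads were paired-end. The annotation and strand setting are not given in the sources used here. The authors deposited RSEM expected counts, not normalized, and TPM, which the authors scaled by transcript length and to a fixed total per library. The kit was for total RNA, whereas the labels say polyA RNA. Column names call Runx1t1 Het or Hom, and Hom was read as homozygous wild type, since the labels give no homozygous knockout. The depth, 10692299 to 38618757 counts per library, sets the precision of low genes.

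Members and lists were chosen with earlier results of these data known. Expected counts were rounded, 16665 genes passed filterByExpr, and all 5 groups were fitted together with the quasi-likelihood model of edgeR 4.0.16 (R 4.3.3, TMM), over 9 contrasts, with Benjamini-Hochberg adjustment over all tested genes and a threshold of 0.05. SEs were computed from the log2 fold change and the F statistic. A count of 3 or fewer was the floor. Named list genes were at most 2 per direction with the largest change in tumors against transgene-free ganglia and a mean TPM of at least 1. Sequences came from RefSeq (GRCm38.p6) and GENCODE M21 (GRCm38). Exceptions, named after their values were seen, were Hmga2-ps1 and the let-7 host genes. Some items are not reported here. Alternatives were upper-quartile scaling, DESeq2 1.42.0, other filters, a replicate block, fits of only the groups compared, terms for depth and sex (Ddx3y over 1 CPM), limma 3.58.1 on log2 TPM and leaving out each library. Fits within libraries over or under 20000000 counts were chosen after seeing the data. The edgeR script was tested on simulated data.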

Additional observations from a re-analysis of the deposited data

Results flagged for a closer look

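In groups of 4 libraries, 14 combinations of member and group were examined for a library far from the other values, which chance alone gives in about 1 of 20. There were 4. Lin28a was at 0.72 TPM in tumor replicate 3, from 36 counts, against 0.06 TPM or less in the other tumors, and this library held 5835 TPM of hepatocyte markers. Igf2bp1 was at 0.01 TPM in tumor replicate 2, from 1 count, where the other tumors were at 0. Igf2bp3 was at 10.36 TPM in transgene-free wild-type replicate 2, the ganglion with 740 TPM of lymphocyte markers, against 2.02 to 2.85 TPM in the others of its group. Hmga2 was at 0.02 TPM in transgene-free wild-type replicate 3 against 0.05 TPM in the other ganglia of the group, all from 3 counts or fewer. In the Igf2bp1 and Hmga2 groups the other 3 values were tied, so that any departure met the rule and the rate of 1 in 20 does not hold for them.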

How the results depend on the processing

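Precision was limited by 2 to 4 libraries a group and by low counts of Igf2bp1, Hmga2 and Lin28a. In tumors against transgene-free ganglia, 4 members were called under each alternative except the filter of 10 counts in every library, which took Igf2bp1 and Igf2bp2 out of the test and left 2 calls in each comparison with tumors, and limma on TPM, which left 3. Against MYCN het ganglia limma on TPM, and the fit of only the groups compared, in which Igf2bp1 was not tested, also left 3. Leaving out single libraries gave 4 calls against transgene-free, 4 to 5 against MYCN wild-type and 2 to 4 against MYCN het ganglia. In MYCN wild-type against transgene-free wild-type ganglia, 0 calls became 2 with DESeq2 and 1 with a term for depth, and ranged from 0 to 2 when libraries were left out, the 2 without MYCN wild-type replicate 3. The difference of Igf2bp3 in tumors against transgene-free ganglia, 0.59, reversed to -0.0085 with a term for sex, to -0.16 and -0.35 with limma on log2(TPM + 1) and log2(TPM + 0.1), and ranged from -0.75 to 1.06 when libraries were left out. The cause was not tested. Over all genes, MYCN wild-type against transgene-free wild-type ganglia called 156, and 1285 with DESeq2, 238 with upper-quartile scaling, 308 with a term for depth, 50 with a term for sex, 16 and 15 with limma, 0 with only the groups compared or within a depth class, 0 without any 1 of transgene-free wild-type replicates 1, 3 and 4 or MYCN wild-type replicates 1 and 4, 1 to 88 without transgene-free het replicate 1, 3 or 4, MYCN het replicate 2 or tumor replicate 2, 3 or 4, 675 without transgene-free wild-type replicate 2 and 1811 without MYCN wild-type replicate 3. All MYCN against all transgene-free ganglia called 7, and 356 with DESeq2, 18 with upper-quartile scaling, 19 with no filter, 2 with 10 counts in every library, 0 with a term for depth, only the groups compared or limma on log2(TPM + 1), 0 without any 1 of the transgene-free het libraries or MYCN het replicate 2, 192 without transgene-free wild-type replicate 2 and 720 without MYCN wild-type replicate 3. MYCN het against MYCN wild-type ganglia called 2, and 0 to 320 under the alternatives. Tumors called 3549 genes against MYCN wild-type ganglia without replicate 3, beside 5755, and 4313 against MYCN het ganglia without replicate 1, beside 7582. Deviations from group means in samples with the same replicate number had r from -0.32 to 0.32, with 7 of 25 pairs over 0.1. In samples with other numbers r had the same range, with 16 of 76 pairs over 0.1. Deviations from means of 2 to 4 libraries are tied to one another, so these values cannot settle whether the numbers mark a batch. With the replicate block the members called stayed at 4 in each comparison with tumors and at 0 in the others, while the calls over all genes in MYCN wild-type against transgene-free wild-type ganglia went from 156 to 0 and in all MYCN against all transgene-free ganglia from 7 to 0.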
